A study of Mus musculus with 71 samples.

Results

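Gene expression in the nucleus accumbens (NAc) was set against that in the ventral tegmental area (VTA) of mice that never received cocaine, to describe which genes and gene programs set the 2 regions apart without drug. The libraries were chosen by their labels alone, as the 6 NAc and 5 VTA libraries of the saline mice at 28 days, which are 11 of the 71 libraries of the series. All 11 came from wild type mice labelled C57BL/6 that, per the study's methods, were C57BL/6J, adult (8 weeks old), male or female, first trained to work for food, and then given saline through a jugular catheter for their own responses in daily sessions before 28 days of abstinence. The series holds RNA-seq of the NAc, the VTA and the prefrontal cortex of saline and cocaine mice at 1 and 28 days of abstinence. Each region was cut from a slice with a micro-punch, so a library holds every cell type of the punch and, at its edge, of the tissue around it.

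The NAc and the VTA are the 2 ends of the mesolimbic pathway. Dopamine neurons of the VTA, at the base of the midbrain, synthesize dopamine from tyrosine, load it into vesicles and send axons to the NAc, in the ventral striatum of the forebrain. Nearly all neurons of the NAc are medium spiny neurons, GABAergic cells that read dopamine through D1 receptors (the direct pathway, with dynorphin and substance P) or D2 receptors (the indirect pathway, with enkephalin and the adenosine receptor Adora2a), and they receive dense glutamatergic input on dendritic spines. The VTA mixes its dopamine neurons with GABAergic and glutamatergic neurons and lies among fibre tracts, next to the red nucleus, the raphe and the hypothalamus.

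The libraries held 30141636 to 42002562 reads in genes in the NAc and 28356375 to 45056082 in the VTA. Levels are given as CPM, the read count of a gene scaled by library size and TMM factor, and each difference as log2 of NAc over VTA from edgeR's quasi-likelihood test with its standard error (SE), so that a positive value is higher in the NAc. A log2 difference and its SE are written as 1 value ± the other, and a gene is said to be higher in a region, or called, only where its adjusted p is under 0.05. NAc levels are the lowest, the median and the highest of 6 libraries, and VTA levels are those of libraries 1 to 5 in that order. Libraries of the NAc correlated with each other at 0.986 to 0.993 over log2 CPM, those of the VTA at 0.955 to 0.991, and those of different regions at 0.897 to 0.925. VTA library 1 stood apart (0.955 to 0.975 with the other VTA libraries). The labels do not say that the libraries come from separate mice, so p-values measure the spread between these libraries. The regions come in separate tables, and the labels give no batch, so region and library preparation cannot be told apart. Y-linked genes were read in all 11 libraries (Kdm5d at 23.6 to 34.9 CPM in the NAc and 19.1 to 28.6 in the VTA). No library held more than 11 reads of Xist, the RNA of the inactive X chromosome, which females express. By these genes none of the 11 libraries was female, although the methods name both sexes.

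Some libraries stood apart in genes known from tissue next to the punches, and the part of such tissue in these levels was not tested. Slc17a7, the vesicular glutamate transporter of cortical neurons, was at 473 CPM in NAc library 1 and 470.2 CPM in NAc library 6, against 56.2 to 215 CPM in the other 4. Tbr1, a transcription factor of cortical glutamatergic neurons, was likewise highest in NAc libraries 1 and 6, at 25.2 and 38.2 CPM. Hcrt, the precursor of the orexins of the lateral hypothalamus, had 14108 reads (439 CPM by library total) in VTA library 1 and at most 31 reads in each of the other 10 libraries, so it did not pass the filter. Pmch, the precursor of melanin-concentrating hormone from the same hypothalamic area, was at 433, 0.660, 2.90, 1.00 and 0.720 CPM in the VTA libraries. Tph2 and Slc6a4, the synthetic enzyme and transporter of raphe serotonin neurons, were at 10.1, 86.4, 234, 247 and 163 CPM and at 4.99, 57.7, 138, 136 and 103 CPM. The serotonin genes were thus low in VTA library 1, where the hypothalamic genes were high. Fmod, of meningeal fibroblasts, was at 2.74, 13.5, 28.6, 201 and 80.9 CPM, and Acta2, smooth muscle actin, at 12.99, 12.6, 51.8, 341 and 72.6 CPM, both highest in VTA library 4. A second fit, chosen after seeing the data, left out NAc libraries 1 and 6 and VTA library 1.

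**Figure D1:**
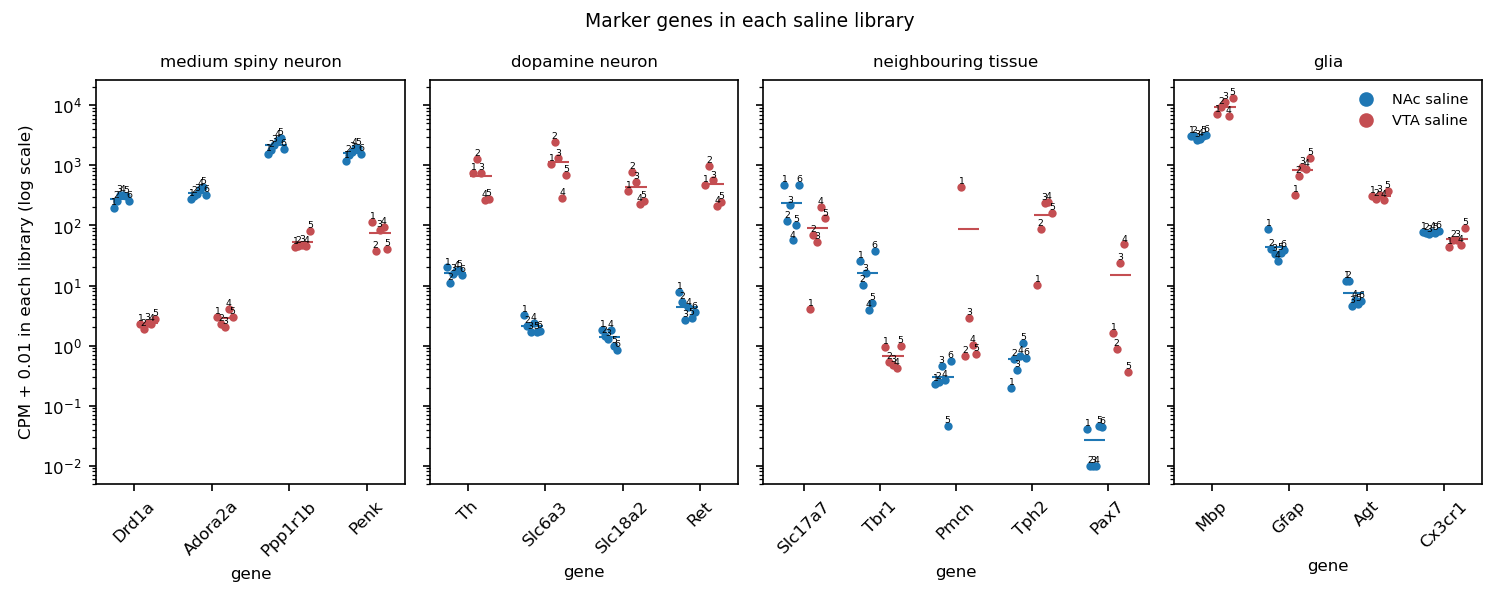
CPM plus 0.01 on a log scale (y axis) of marker genes (x axis) in each saline library, with NAc libraries in blue, VTA libraries in red, the library number above each point and the mean as a line. The 4 medium spiny neuron genes and the 4 dopamine neuron genes do not overlap between regions, while Slc17a7, Pmch, Tph2 and Pax7 spread widely among the VTA libraries or the NAc libraries.

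The regions differed in most of the genes they express. Of 16841 genes tested, 4738 (28.1%) were called higher in the NAc and 5162 (30.7%) higher in the VTA at an adjusted p under 0.05. At least 2-fold differences were called for 1623 genes (9.64%) higher in the NAc and for 2123 (12.6%) higher in the VTA, and this larger call is the one used for the gene lists below. The libraries of the regions did not overlap for 6771 genes (40.2%). The median log2 difference of all genes tested was -0.03. A model that tests for a change of over 2-fold, rather than taking genes with a fitted 2-fold difference, called 1024 and 1125 genes. With library totals in place of TMM factors, 3836 genes were called higher in the NAc and 6145 in the VTA, and the median of all genes was -0.13, so differences of that size turn on the scaling. Without NAc libraries 1 and 6 and VTA library 1, 1618 and 2464 genes differed by at least 2-fold.

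**Figure D2:**
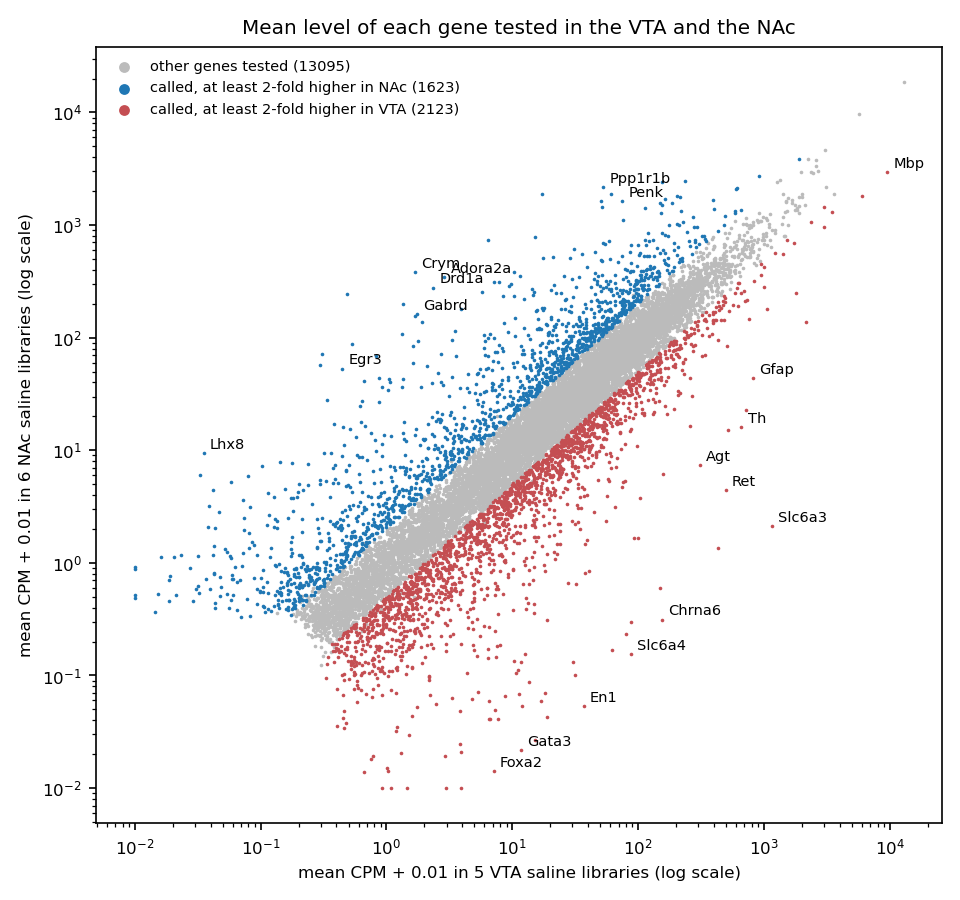
Mean CPM plus 0.01 of each gene tested in the 5 VTA libraries (x axis) and the 6 NAc libraries (y axis), both on log scales, with genes called and at least 2-fold apart in blue (1623 higher in the NAc) or red (2123 higher in the VTA). Th, Slc6a3, Ret and Chrna6 lie far below the diagonal, and Drd1a, Adora2a and Crym far above it.

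Among genes with a mean of at least 5 CPM in a region, the 10 largest differences toward the NAc included those of Lhx8, Crym, Sh3rf2, Cd4, Kcnh3, Adora2a, Egr3 and Drd1a. Lhx8, a LIM homeobox factor of forebrain cholinergic neurons, differed by 8.31 ± 0.37. Crym, which encodes the thyroid hormone binding protein mu-crystallin, was at 360.0, 373 and 419 CPM in the NAc and at 1.74, 1.91, 1.503, 1.57 and 1.65 CPM in the VTA (log2 difference 7.83, SE 0.10, adjusted p = 2.96e-14). Both groups of Crym values were narrow, and no VTA library reached 2 CPM. Sh3rf2 differed by 7.55 ± 0.47, Cd4 by 7.33 ± 0.39 and the potassium channel gene Kcnh3 by 7.23 ± 0.13. Without VTA library 4, Sh3rf2 differed by 8.50.
The 10 largest differences toward the VTA were those of Gata3, Foxa2, Pax7, En1, Slc6a4, Slc6a3, Foxa1, Chrna6, Chrnb3 and Lmx1b. Of these, 3 had at most 3 reads over all 6 NAc libraries, so their ratio is given with its 95% counting interval: Gata3 was 1245 times higher (344 to 10280), Foxa2 1385 times (248 to 54760) and Pax7 1207 times (413 to 5858). Both NAc reads of Gata3 were in library 5 and the 1 of Foxa2 in library 4, and without these libraries the fitted log2 differences went from -9.78 to -11.75 and from -9.74 to -10.99. Pax7 lay at 1.59, 0.869, 24.2, 48.2 and 0.347 CPM in the VTA libraries, so libraries 3 and 4 held nearly all of it, and without library 4 its log2 difference was -8.52. Chrna6 and Chrnb3, subunits of a nicotinic receptor of dopamine neurons, are neighbours on chromosome 8 (mm9, chr8:28513686-28524416 and chr8:28479183-28510201) and differed by -8.98 ± 0.52 and -8.51 ± 0.56.

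Medium spiny neuron genes were higher in the NAc throughout. All 19 tested members of the list of genes shared by both types of medium spiny neuron were called at least 2-fold higher in the NAc, with a median log2 difference of 3.96 against -0.03 for all genes. Ppp1r1b, which encodes DARPP-32, the integrator of dopamine and glutamate signals in these cells, was at 1539, 2036 and 2890.4 CPM in the NAc and at 44.1, 45.2, 48.0, 45.5 and 81.4 CPM in the VTA. All NAc libraries lay far above the highest VTA library, number 5, for this gene (log2 difference 5.35, SE 0.25, adjusted p = 3.39e-09). Pde10a, the striatal cAMP and cGMP phosphodiesterase, differed by 4.81 ± 0.24, Rgs9, which speeds the shut-off of receptor signals, by 4.85 ± 0.23, and Bcl11b, a transcription factor of medium spiny neurons, by 4.94 ± 0.15. Smaller differences were those of Rasgrp2 (2.01 ± 0.22) and Ptpn5, the striatal-enriched phosphatase (2.30 ± 0.16).

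The direct pathway list had 6 of 10 tested members called at least 2-fold higher in the NAc and none higher in the VTA. Drd1a, the D1 receptor (mm9 chr13:54146555-54151027), was at 198, 284 and 327 CPM in the NAc and at 2.29, 1.91, 2.41, 2.28 and 2.80 CPM in the VTA (log2 difference 6.89, SE 0.18, adjusted p = 2.94e-11). Pdyn, the precursor of dynorphin, was at 267, 323 and 348 CPM in the NAc and at 22.8, 4.45, 4.14, 3.51 and 0.907 CPM in the VTA, where library 1 was highest (log2 difference 5.46, SE 0.65, adjusted p = 1.12e-05). Tac1, which encodes substance P, was at 201, 258 and 283 CPM and at 61.4, 11.0, 16.5, 12.5 and 9.92 CPM, again with VTA library 1 the highest of the VTA (log2 difference 3.49, SE 0.46, adjusted p = 2.85e-05). No NAc library overlapped a VTA library for these 3 genes, and without VTA library 1 Pdyn and Tac1 differed by 6.59 and 4.32. Eya1, Ebf1 and Sfxn1 of the same list were not called (-0.16 ± 0.38, -0.01 ± 0.23 and 0.10 ± 0.11).
The indirect pathway list had 6 of 9 members called at least 2-fold higher in the NAc and 1, Ttc12, higher in the VTA (-1.47 ± 0.16). Adora2a, the adenosine receptor of indirect pathway neurons (mm9 chr10:74779688-74797533), was at 279.6, 328 and 432 CPM in the NAc and at 2.95, 2.26, 2.06, 4.03 and 3.01 CPM in the VTA (log2 difference 6.91, SE 0.21, adjusted p = 1.29e-10). Penk, the enkephalin precursor, was at 1186, 1623 and 1980.0 CPM and at 116, 37.6, 84.0, 95.0 and 40.5 CPM (log2 difference 4.46, SE 0.32, adjusted p = 1.33e-07). Gpr6, an orphan receptor of indirect pathway neurons, differed by 5.71 ± 0.30. Cartpt, the precursor of the CART peptides, was at 14.3, 16.5 and 31.7 CPM in the NAc and at 22.1, 2.503, 2.60, 9.62 and 0.694 CPM in the VTA and was not called (log2 difference 1.43, SE 0.64, adjusted p = 0.0715). VTA library 1 alone lay within the range of the NAc libraries. Without it Cartpt was called, with a log2 difference of 2.37, while in saline mice at 1 day the difference had the opposite sign (-1.43 ± 1.26).

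The dopamine synthesis and transport genes ran the other way. Of 14 tested genes for making, storing, retrieving and breaking down dopamine, 10 were called at least 2-fold higher in the VTA and none in the NAc, with a median of -2.84. Th, the rate-limiting enzyme (mm9 chr7:150078657-150117033), was at 10.9, 16.3 and 19.97 CPM in the NAc and at 746, 1271, 757, 266 and 276 CPM in the VTA (log2 difference -5.37, SE 0.41, adjusted p = 2.26e-07). Slc6a3, the dopamine transporter (mm9 chr13:73674195-73716120), was at 1.65, 1.91 and 3.16 CPM in the NAc and at 1068, 2414, 1305, 287 and 701 CPM in the VTA (log2 difference -9.09, SE 0.54, adjusted p = 2.61e-08). Slc18a2, the vesicular monoamine transporter, was at 0.829, 1.35 and 1.82 CPM and at 379, 776, 525.8, 229 and 254 CPM (log2 difference -8.30, SE 0.39, adjusted p = 3.79e-09). Each of these genes was highest in VTA library 2 and lowest in VTA library 4, and no library of the regions overlapped. The spread of these genes among the VTA libraries was over 3-fold, while that of Ppp1r1b among the NAc libraries was under 2-fold.
Ddc, which turns L-DOPA into dopamine and 5-HTP into serotonin, differed by -5.11 ± 0.29, and Gch1, which starts the synthesis of the cofactor of Th, by -5.52 ± 0.32. Aldh1a1, an aldehyde dehydrogenase of dopamine neurons, differed by -5.00 ± 0.29. Among the breakdown enzymes, Maoa and Maob were higher in the VTA (-1.20 ± 0.09 and -1.06 ± 0.09). In bulk tissue, fewer cells of a type and less RNA per cell cannot be told apart.

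The promoters of 3 of these genes are shown because each holds a motif. Motifs were searched for on both strands, in RefSeq windows of 250 bases before to 50 after the gene's start (GRCm38.p6). Windows of the other genes of this list are not shown, so the share of the list with a motif is not given. The motifs were the cAMP response element (CRE, TGACGTCA), the NBRE bound by Nr4a factors (AAAGGTCA) and the TATA box (TATAAA), and matches stand in capitals.
Th, chr7:142899946-142900245, minus strand: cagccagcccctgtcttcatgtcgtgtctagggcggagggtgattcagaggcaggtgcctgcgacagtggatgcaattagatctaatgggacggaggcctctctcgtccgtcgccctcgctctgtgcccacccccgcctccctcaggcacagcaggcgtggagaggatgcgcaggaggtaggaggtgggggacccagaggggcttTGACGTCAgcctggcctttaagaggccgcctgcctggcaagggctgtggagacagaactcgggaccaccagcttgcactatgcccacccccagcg
Slc18a2, chr19:59260628-59260927, plus strand: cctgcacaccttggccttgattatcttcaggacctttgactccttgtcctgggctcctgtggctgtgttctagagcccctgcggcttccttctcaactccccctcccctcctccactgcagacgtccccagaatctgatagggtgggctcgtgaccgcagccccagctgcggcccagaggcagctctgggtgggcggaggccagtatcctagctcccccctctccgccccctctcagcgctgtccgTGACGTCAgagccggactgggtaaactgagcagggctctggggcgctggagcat
Ddc, chr11:11898095-11898394, minus strand: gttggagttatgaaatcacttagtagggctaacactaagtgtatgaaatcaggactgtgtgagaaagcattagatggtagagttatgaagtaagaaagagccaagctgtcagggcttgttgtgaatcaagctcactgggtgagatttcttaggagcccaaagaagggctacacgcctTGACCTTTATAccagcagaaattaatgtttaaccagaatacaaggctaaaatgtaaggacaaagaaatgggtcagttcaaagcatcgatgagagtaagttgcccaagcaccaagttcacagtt
A CRE began 45 bases before the start of Th and 4 bases before that of Slc18a2. Ddc held an NBRE that began 73 bases before its start and TATA letters that overlap it, both read on the strand opposite to the gene. A second Ddc window and the windows of Tac1, Pdyn and Drd1 (Drd1a in the files) held none of the 3. Of the 10899 tested genes with a window, 3.42% held a CRE, against 2.81% of the 1032 genes at least 2-fold higher in the NAc and 1.79% of the 1454 higher in the VTA. An NBRE was held by 1.18% of all, by 0.969% of the NAc genes and by 1.65% of the VTA genes, and a TATA box by 9.13%, 11.2% and 12.1%.

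Transcription factors that specify and maintain midbrain dopamine neurons were higher in the VTA, with 10 of 13 called at least 2-fold and none higher in the NAc (median -5.56). En1 was at 0, 0.0275 and 0.105 CPM in the NAc and at 43.4, 64.0, 40.6, 17.7 and 19.4 CPM in the VTA (log2 difference -9.62, SE 0.54, adjusted p = 1.76e-08). Pitx3 was at 0, 0.0266 and 0.104 CPM and at 11.6, 12.6, 7.88, 2.21 and 4.46 CPM (log2 difference -7.88, SE 0.64, adjusted p = 3.93e-07). Both were highest in VTA library 2 and lowest in library 4, as was Th. Foxa1 (-8.98 ± 0.51), Lmx1b (-8.44 ± 0.36), Lmx1a (-7.98 ± 0.53) and En2 (-4.45 ± 0.27) were also higher in the VTA. Nr4a2 (Nurr1) was called higher in the VTA although its libraries overlapped (log2 difference -2.19, SE 0.59, adjusted p = 0.00645): it was at 3.23, 5.83 and 31.1 CPM in the NAc, highest in libraries 3 and 6, and at 51, 88.1, 59.0, 31.6 and 22.1 CPM in the VTA. Without NAc library 6, Nr4a2 differed by -2.83 and Pitx3 by -8.57. Sox6 and Msx1 were not called (-0.25 ± 0.18 and 0.13 ± 0.26), and without VTA library 1 Sox6 was called higher in the VTA (-0.41).
Of 17 other genes known from dopamine neurons, 12 were at least 2-fold higher in the VTA and 3 higher in the NAc. Ret, the GDNF receptor kinase, was at 2.65, 3.96 and 7.72 CPM in the NAc and at 473, 985, 562, 207 and 249 CPM in the VTA (log2 difference -6.80, SE 0.46, adjusted p = 8.69e-08). Sncg, gamma-synuclein, differed by -5.82 ± 0.33, Ntsr1, the neurotensin receptor of dopamine neurons, by -3.99 ± 0.37, and Slc10a4, a vesicular transporter of monoamine neurons, by -2.65 ± 0.32. The 3 genes higher in the NAc were Drd2, Calb1 and Nts (1.29 ± 0.35, 1.32 ± 0.42 and 1.498 ± 0.56). The libraries that the call of Nts rests on are given with the neuropeptides.

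Transcription factors that pattern the embryonic brain were mostly called in the same direction within each list. Of 20 forebrain factors, 18 were at least 2-fold higher in the NAc and none higher in the VTA (median 3.97). The 18 include Tbr1, the factor of cortical neurons named above (4.64 ± 0.63). Without NAc libraries 1 and 6 and VTA library 1, Tbr1 differed by 3.89, and the count of the list was again 18 (median 4.21). The part of neighbouring cortex in this count was not tested. Of 21 midbrain and hindbrain factors, 20 were at least 2-fold higher in the VTA and none in the NAc (median -6.41). The Dlx factors of forebrain GABAergic neurons differed by 3.10 ± 0.80 (Dlx1), 3.91 ± 0.72 (Dlx2), 5.56 ± 0.51 (Dlx5) and 5.36 ± 0.69 (Dlx6), and Meis2 and Six3, also of the striatal lineage, by 4.14 ± 0.33 and 2.91 ± 0.62. Without VTA library 1 the 4 Dlx genes differed by 5.06, 5.77, 6.68 and 7.12, and without VTA library 5 Six3 differed by 4.11. The members not called were Nkx2-1 (-0.64 ± 0.77) and Zic1 (-0.53 ± 0.46). Nkx2-1, also a hypothalamic factor, was at 21.5, 0.209, 0.387, 7.00 and 6.86 CPM in the VTA libraries, highest in library 1, without which its difference was 0.34.
On the midbrain side, Gata2 and Tal1, factors of midbrain GABAergic neurons, differed by -1.43 ± 0.27 and -3.27 ± 0.26, and Gata3 of the same neurons is among the largest differences above. Sox14, also of midbrain GABAergic neurons, had 2 reads over the NAc libraries and was 306 times higher in the VTA (84.2 to 2529). The Irx genes Irx1, Irx2, Irx3 and Irx5 differed by -4.76 ± 0.31, -7.91 ± 0.53, -6.66 ± 0.31 and -6.34 ± 0.34.

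**Figure D3:**
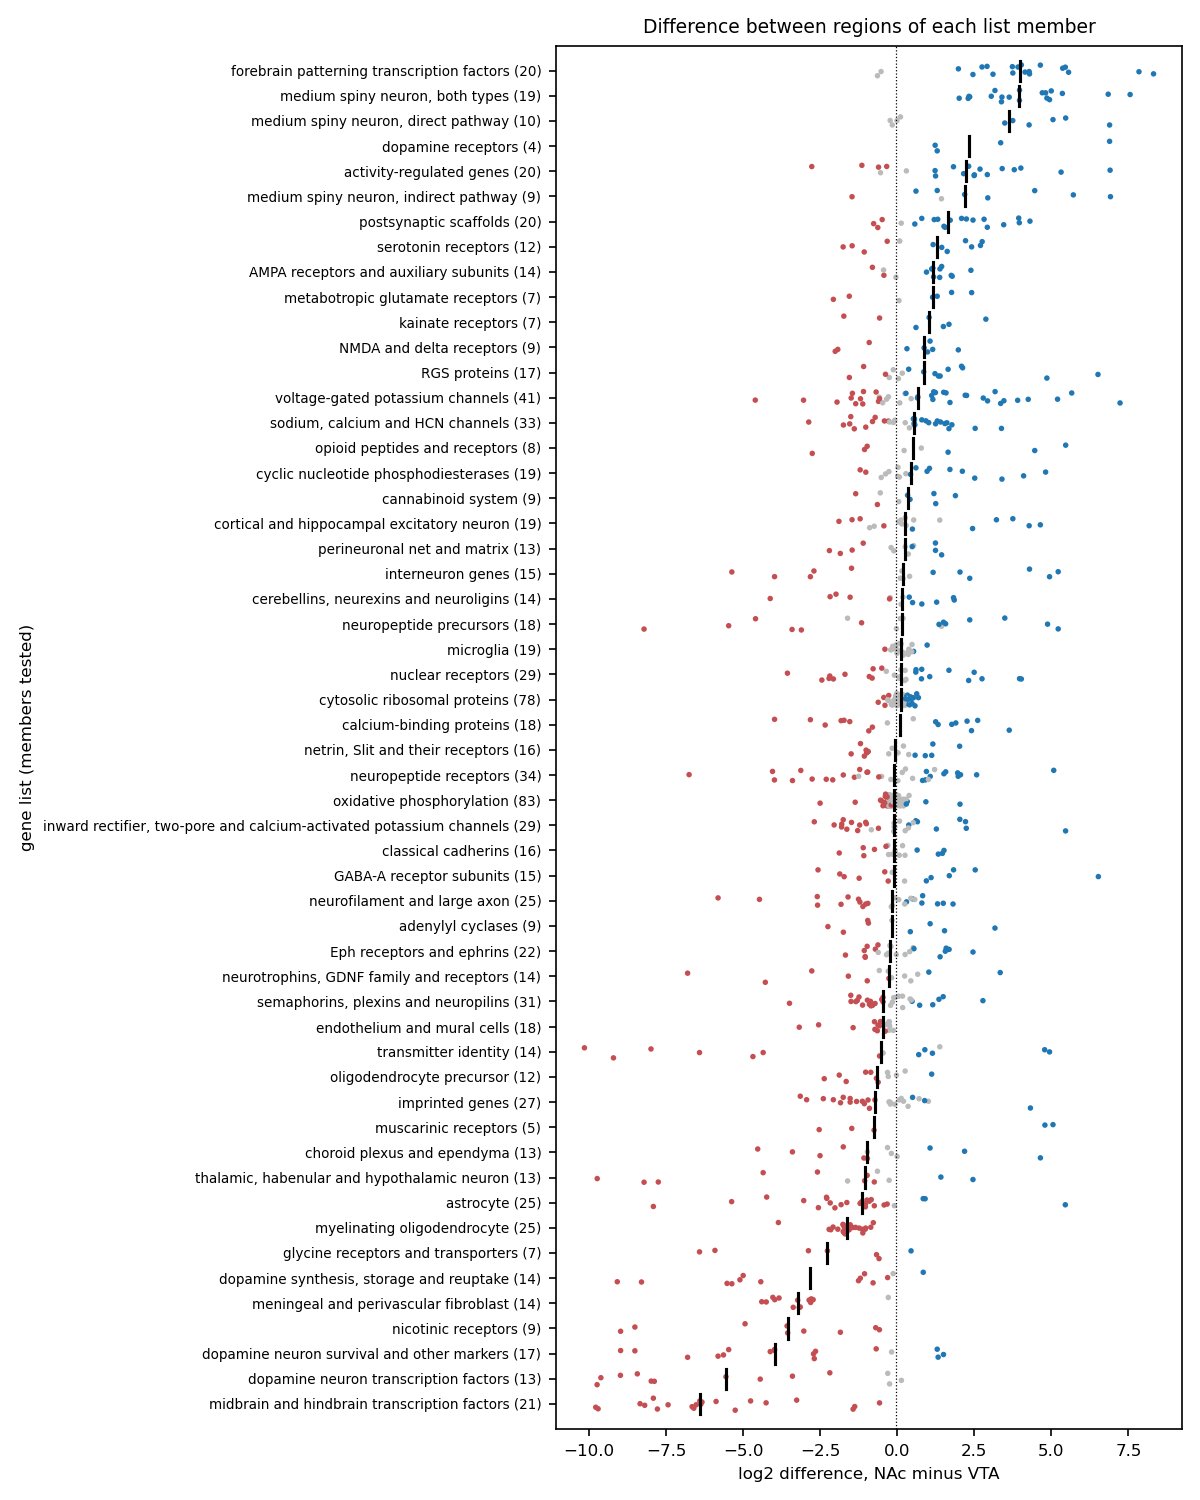
Log2 difference of NAc minus VTA (x axis) of each tested member of 54 gene lists (y axis, number of members in brackets), with called genes in blue (higher in the NAc) or red (higher in the VTA), genes not called in grey, the list's median as a black bar and the median of all genes as a dotted line. Forebrain factors (3.97) and medium spiny neuron genes (3.96) stand at the top and midbrain and hindbrain factors (-6.41) at the bottom.

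GABAergic genes were expressed in both punches, and the subcortical glutamate transporter and the serotonin neuron genes were higher in the VTA. Gad1 and Gad2, which make GABA, and Slc32a1, which loads it into vesicles, were called higher in the NAc by 0.69 ± 0.19, 1.14 ± 0.12 and 0.89 ± 0.11. In saline mice at 1 day Gad1 and Slc32a1 were not called (0.22 ± 0.17 and 0.22 ± 0.22). Gad2 was at 583, 698 and 766 CPM in the NAc and at 246, 346, 375, 265 and 299 CPM in the VTA, without overlap. Slc17a6, the vesicular glutamate transporter of subcortical neurons, was at 2.74, 6.35 and 10.1 CPM in the NAc and at 279.8, 126, 100.7, 170.0 and 109 CPM in the VTA, highest in library 1 (log2 difference -4.68, SE 0.35, adjusted p = 2.13e-07). Slc17a7 was not called, with overlapping libraries (log2 difference 1.38, SE 0.76, adjusted p = 0.136). Slc17a8, the third transporter, found in raphe and cholinergic neurons, was not called either (-0.46 ± 0.70) and lay at 1.35, 6.33, 52.5, 71.0 and 7.68 CPM in the VTA libraries, where libraries 3 and 4, which were high in Tph2, were highest. Without library 4 its difference was 0.28. Tph2 and Slc6a4 differed by -7.99 ± 0.75 and -9.21 ± 0.85. Fev, a serotonin neuron factor, had no read in any NAc library and 814 reads in the VTA, which puts it at least 295-fold higher there, counted against a floor of 3 reads over the NAc libraries. Slc6a5, the glycine transporter of glycinergic neurons, differed by -6.42 ± 0.70. Dbh, which makes noradrenaline, had at most 9 reads in any library.
The cholinergic genes Chat and Slc5a7 were higher in the NAc (4.94 ± 0.25 and 4.78 ± 0.28). Chat was at 17.03, 26.5 and 34.1 CPM in the NAc and at 0.812, 1.25, 1.10, 0.684 and 0.507 CPM in the VTA. Of 15 interneuron genes, 6 were at least 2-fold higher in the NAc and 5 higher in the VTA. Npy and Sst, of one class of striatal interneuron, differed by 5.22 ± 0.38 and 2.35 ± 0.41, and Lhx6, a factor of interneurons from the ventral telencephalon, by 4.29 ± 0.43. Without VTA library 1, Npy and Lhx6 differed by 5.82 and 4.87, and without NAc library 1 Calb2 differed by -4.60. Pvalb and Calb2, calcium-binding proteins of many neuron types, were higher in the VTA (-2.82 ± 0.31 and -3.98 ± 0.51). Nos1, which makes nitric oxide, was not called (0.15 ± 0.30), but was called higher in the NAc without VTA library 4 (0.59).

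All 4 tested dopamine receptors were at least 2-fold higher in the NAc. Drd1a differed most, at 6.89 ± 0.18, then Drd3 (3.35 ± 0.22), Drd2 (1.29 ± 0.35) and Drd5 (1.23 ± 0.25). Drd2, which dopamine neurons carry as an autoreceptor, was at 196, 269 and 332 CPM in the NAc and at 143, 196, 121, 34.6 and 59.0 CPM in the VTA. The lowest NAc library and VTA library 2, the highest for Th, were thus at nearly the same level. Drd2 differed by 0.93 in cocaine mice at 28 days and by 0.38 in saline mice at 1 day. In each of these comparisons 3 of the 4 receptors were at least 2-fold higher in the NAc. Levels per kilobase of exon were 78.8 CPM per kb for Drd1a and 107 for Drd2 in the NAc, and 0.663 and 43.5 in the VTA.

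Nicotinic receptor genes were higher in the VTA, while muscarinic receptor genes were called in both directions. All 9 tested nicotinic subunits, which form ion channels, were called higher in the VTA, 7 of them by at least 2-fold (median -3.56). Chrna6 was at 0.140, 0.312 and 0.558 CPM in the NAc and at 152, 302, 189, 63.8 and 70.9 CPM in the VTA, in the order of Th. Chrna5, Chrna3 and Chrna4 differed by -4.94 ± 0.41, -3.58 ± 0.33 and -3.03 ± 0.25, and the widely expressed Chrnb2 and Chrna7 by -0.58 ± 0.09 and -0.70 ± 0.23. The call of Chrna7 was lost without VTA library 2 (-0.52) or 3 (-0.58). Of the 5 muscarinic receptors, Chrm1 and Chrm4 were higher in the NAc (4.79 ± 0.18 and 5.05 ± 0.13). Chrm5, the muscarinic receptor of dopamine neurons, Chrm2 and Chrm3 were higher in the VTA (-2.54 ± 0.29, -1.48 ± 0.20 and -0.75 ± 0.20).

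Of 12 serotonin receptors, 7 were at least 2-fold higher in the NAc and 3 in the VTA. The VTA count was 2 without any 1 library other than NAc library 1 or VTA library 1. It was 2 in cocaine mice at 28 days and 1 in saline mice at 1 day. Htr1b, Htr6 and Htr4 differed by 2.75 ± 0.23, 2.70 ± 0.18 and 2.21 ± 0.20. Htr7 and Htr1a, the autoreceptor of serotonin neurons, were higher in the VTA (-1.76 ± 0.25 and -1.47 ± 0.38), and Htr2c was not called (0.08 ± 0.13, with 119.8 ± 16.2 CPM in the NAc and 113 ± 20.6 CPM in the VTA, SD, n = 6 and n = 5).

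GABA-A receptors showed different subunits rather than more of all in either region: 5 of 15 were at least 2-fold higher in the NAc and 4 in the VTA, with a median of -0.12. Gabrd, the delta subunit of receptors outside the synapse, was at 119, 171 and 188 CPM in the NAc and at 1.44, 0.939, 1.22, 3.15 and 1.87 CPM in the VTA (log2 difference 6.52, SE 0.29, adjusted p = 2.2e-09). Gabra4, with which delta often pairs, differed by 2.53 ± 0.21, and Gabrg3 and Gabra2 by 1.82 ± 0.11 and 1.10 ± 0.14. In the VTA, Gabrq (-2.57 ± 0.42), Gabre (-1.87 ± 0.39) and Gabrr2 (-1.72 ± 0.33) were higher. Gabrb2, Gabrg1 and Gabrb1 were not called (-0.12 ± 0.19, -0.17 ± 0.11 and 0.23 ± 0.17). Of 7 genes of glycine signalling, 4 were at least 2-fold higher in the VTA. Glra1, the adult receptor subunit of the brainstem, differed by -5.92 ± 0.41, Glra3 by -2.88 ± 0.26 and Slc6a9, the glial glycine transporter, by -2.27 ± 0.13. Gphn, which encodes gephyrin, the scaffold of both receptor types, was slightly higher in the NAc (0.45 ± 0.08).

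**Figure D4:**
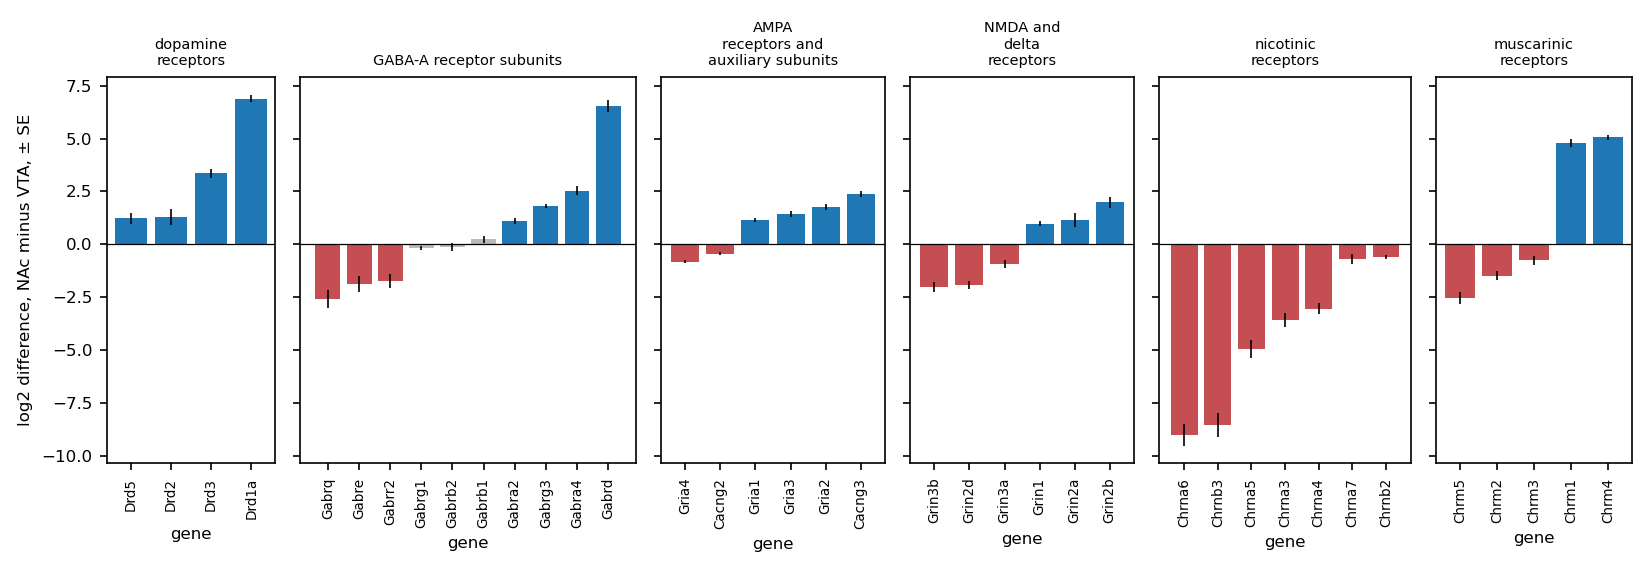
Log2 difference of NAc minus VTA (y axis) with its SE as error bar for those tested members (x axis) of 6 receptor families that are named in the text, in blue where called higher in the NAc, red where called higher in the VTA and grey where not called. Dopamine receptors lie above 0 (1.23 to 6.89) and nicotinic subunits below 0 (-8.98 to -0.58), while the other families have members on both sides.

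Most AMPA receptor genes were higher in the NAc. Of 14 AMPA receptor and auxiliary subunits, 9 were at least 2-fold higher in the NAc and none in the VTA (median 1.17). Gria2, which makes the channel impermeable to calcium, was at 418, 558 and 699 CPM in the NAc and at 143, 200.4, 178, 164 and 131 CPM in the VTA (log2 difference 1.78, SE 0.15, adjusted p = 5.18e-07). Gria1 and Gria3 differed by 1.15 ± 0.10 and 1.44 ± 0.12, and Gria4 was higher in the VTA (-0.81 ± 0.09). The auxiliary subunit Cacng3 differed by 2.39 ± 0.15, while Cacng2 (stargazin) was higher in the VTA (-0.44 ± 0.07). Among NMDA receptor genes, Grin2b (1.98 ± 0.27), Grin2a (1.15 ± 0.33) and the obligatory Grin1 (0.98 ± 0.10) were higher in the NAc, and Grin2d, Grin3a and Grin3b in the VTA (-1.93 ± 0.18, -0.91 ± 0.19 and -2.02 ± 0.24). The kainate receptor genes Grik2 and Grik5 were higher in the NAc (1.68 ± 0.13 and 1.49 ± 0.09), with the auxiliary subunit Neto1 (2.87 ± 0.18), and Grik1 and Grik4 in the VTA (-1.74 ± 0.18 and -0.58 ± 0.11). Of the 7 metabotropic receptors, Grm5, Grm4, Grm3 and Grm7 were at least 2-fold higher in the NAc (2.41 ± 0.14, 1.76 ± 0.22, 1.29 ± 0.17 and 1.14 ± 0.12), and Grm2 and Grm8 in the VTA (-2.07 ± 0.42 and -1.56 ± 0.18).
Postsynaptic scaffolds went with them, at 14 of 20 at least 2-fold higher in the NAc, none in the VTA and a median of 1.63. Camk2a, the kinase of spine synapses, was at 2037, 2391 and 2758 CPM in the NAc and at 202, 122, 158, 192 and 98.6 CPM in the VTA (log2 difference 3.96, SE 0.19, adjusted p = 5.08e-09). Shank3 (2.81 ± 0.14), Homer1 (2.92 ± 0.17), Dlgap3 (2.46 ± 0.14) and Dlg4, which encodes PSD-95 (1.72 ± 0.11), were higher in the NAc. Shank1 was not called (0.13 ± 0.17), and Homer2, Homer3 and Iqsec1 were higher in the VTA by less than 2-fold (-0.77 ± 0.27, -0.63 ± 0.15 and -0.49 ± 0.12). The call of Homer2 was lost without NAc library 2, 3, 4 or 5 or VTA library 2 or 3, at -0.73 to -0.62.

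The enzymes of cAMP signalling differed by isoform. Adcy5, the adenylyl cyclase coupled to D1 and adenosine receptors in the striatum, was at 1431, 1749.9 and 2219.8 CPM in the NAc and at 189.8, 207, 206, 219 and 188 CPM in the VTA (log2 difference 3.17, SE 0.13, adjusted p = 1.35e-09). Adcy1 and Adcy9 were also higher in the NAc (1.53 ± 0.20 and 1.07 ± 0.23), Adcy8 and Adcy7 in the VTA (-2.25 ± 0.21 and -1.75 ± 0.15), and Adcy2 was not called (-0.18 ± 0.10). Of 19 phosphodiesterases, 7 were at least 2-fold higher in the NAc and 2 in the VTA. Pde10a, Pde7b, Pde1b and Pde2a led, at 4.81 ± 0.24, 4.10 ± 0.17, 3.39 ± 0.17 and 2.51 ± 0.13, while Pde4a did not differ at the threshold (0.01 ± 0.12). The RGS proteins, which shorten G protein signals, had 8 of 17 members at least 2-fold higher in the NAc, led by Rgs14 (6.51 ± 0.20) and Rgs9, and 2 higher in the VTA, Rgs6 and Rgs3 (-1.56 ± 0.19 and -1.09 ± 0.07). In the cannabinoid system, Cnr1, the CB1 receptor, Dagla, which makes its ligand 2-AG, and Mgll, which breaks it down, were higher in the NAc (1.25 ± 0.16, 1.19 ± 0.10 and 1.88 ± 0.09), and Napepld, of the anandamide route, in the VTA (-1.35 ± 0.11).

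The ion channel lists held genes called higher in each region. Of 41 voltage-gated potassium channel genes, 19 were at least 2-fold higher in the NAc and 9 in the VTA. Kcnh3 was at 176, 199.8 and 235 CPM in the NAc and at 1.62, 1.04, 1.35, 1.44 and 1.20 CPM in the VTA (log2 difference 7.23, SE 0.13, adjusted p = 1.15e-12). Kcnip2 and Kcnd2, subunits of A-type channels, were higher in the NAc (5.20 ± 0.24 and 1.58 ± 0.14), and Kcnd3, another A-type subunit, in the VTA (-1.50 ± 0.24). The fast-firing channel genes Kcnc1, Kcnc2 and Kcnc4 were higher in the VTA (-0.61 ± 0.12, -1.35 ± 0.28 and -1.96 ± 0.30). Of the inward rectifiers, Kcnj4 and Kcnj2, which hold medium spiny neurons at rest, were higher in the NAc (5.46 ± 0.41 and 2.21 ± 0.20), and Kcnj6 (GIRK2), a channel of dopamine neurons, in the VTA (-2.69 ± 0.38). Hcn4, Hcn3 and Hcn2, pacemaker channels, were higher in the VTA (-1.75 ± 0.15, -1.40 ± 0.20 and -0.80 ± 0.11). Cacna1g, a T-type calcium channel, was higher in the VTA (-1.51 ± 0.23), while Cacna1h and Cacna1i, also T-type, and the L-type genes Cacna1c and Cacna1d were higher in the NAc (1.77 ± 0.13, 1.24 ± 0.12, 1.30 ± 0.17 and 1.02 ± 0.13). Scn4b, a sodium channel subunit of medium spiny neurons, was higher in the NAc (3.38 ± 0.32).
Among calcium-binding proteins, Hpca (3.63 ± 0.28), Pcp4 (1.77 ± 0.17) and Calb1 were higher in the NAc, and Calb2, Pvalb and S100b (-1.82 ± 0.13) in the VTA. In the list of neurofilament and presynaptic genes, 11 of 25 were called higher in the VTA, 10 of them by at least 2-fold. In the NAc 7 were called higher, 3 of them by at least 2-fold (median -0.16). Of all genes tested, 30.7% were called higher in the VTA and 28.1% in the NAc, and 12.6% and 9.64% by at least 2-fold. The NAc counts of this list lay near those shares. The neurofilament genes Nefh, Nefm and Nefl were higher in the VTA by -2.59 ± 0.17, -1.60 ± 0.18 and -1.26 ± 0.14, and so were the presynaptic genes Vamp1 and Syt2 by -2.60 ± 0.21 and -1.83 ± 0.22. The common presynaptic genes Snap25 and Syn1 were not called (-0.20 ± 0.10 and 0.04 ± 0.08).

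Neuropeptide genes were likewise called in both directions. Of 18 tested precursors outside the opioids, 7 were at least 2-fold higher in the NAc and 6 in the VTA. Npy, Tac1 and Sst were higher in the NAc. Sst was at 215, 250.2 and 323 CPM in the NAc and at 51.4, 21.3, 56.3, 109 and 16.1 CPM in the VTA. Adcyap1, the precursor of PACAP, Grp, of a subset of dopamine neurons, and Gal, galanin, were higher in the VTA (-4.60 ± 0.52, -5.47 ± 0.68 and -3.42 ± 0.81). Nts, neurotensin, and Crh were called higher in the NAc with overlapping libraries (1.498 ± 0.56 and 1.35 ± 0.51), where Nts in VTA library 1, at 22.2 CPM, exceeded 5 of the 6 NAc libraries. Without that library the differences of Nts and Crh were 2.71 and 2.14 and that of Gal was -1.75. The call of Nts was lost without any other library but NAc 6 (1.24 to 1.52), and that of Crh without NAc library 1, 2 or 4 or VTA library 2, 3, 4 or 5 (1.08 to 1.35). Cck and Vip were not called (0.10 ± 0.61 and 0.19 ± 0.60). Of 34 peptide receptors, 8 were at least 2-fold higher in the NAc, led by Vipr1 (5.07 ± 0.11) and Mchr1, the melanin-concentrating hormone receptor (2.57 ± 0.15). The VTA had 11, led by Ghsr, the ghrelin receptor (-6.76 ± 0.60), Hcrtr1, an orexin receptor (-4.05 ± 0.30), and Ntsr1, with the leptin receptor Lepr (-2.76 ± 0.43) and Crhr1 (-1.39 ± 0.16). Ghsr differed by -7.86 without NAc library 2, and Lepr by -2.08 without VTA library 4.
In the opioid system the precursors Penk and Pdyn were higher in the NAc and Pnoc, of nociceptin, in the VTA (-2.76 ± 0.36). Oprd1, the delta receptor, was higher in the NAc (1.65 ± 0.32) and Oprl1, the nociceptin receptor, in the VTA (-1.06 ± 0.15). Oprm1, the mu receptor, was at 4.09, 5.85 and 7.01 CPM in the NAc and at 1.98, 5.01, 7.99, 6.20 and 3.95 CPM in the VTA, with overlapping libraries, and was not called (0.22 ± 0.28). Oprk1, the kappa receptor, was not called either (0.78 ± 0.33, adjusted p = 0.0556), but was called higher in the NAc without NAc library 1 (0.88) or VTA library 2 (1.15).

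Activity-regulated genes were higher in the NAc in mice that received saline. Of 20, 14 were at least 2-fold higher in the NAc and 2, Bdnf and Ier2, in the VTA (-2.78 ± 0.46 and -1.15 ± 0.22), with a median of 2.23. Nr4a1, the orphan nuclear receptor at the centre of the study (mm9 chr15:101097277-101105223), was at 42.9, 58.6 and 114 CPM in the NAc and at 13.98, 8.86, 13.9, 19.3 and 15.1 CPM in the VTA (log2 difference 2.31, SE 0.28, adjusted p = 1.24e-05). Nr4a3 was at 11.0, 15.1 and 23.1 CPM and at 3.34, 2.12, 3.37, 2.89 and 2.48 CPM (log2 difference 2.49, SE 0.21, adjusted p = 6.14e-07). Both were thus higher in the NAc without overlap, and Nr4a2 alone of the family was higher in the VTA. Egr3, Egr4, Egr2 and Egr1 differed by 6.90 ± 0.31, 5.31 ± 0.22, 4.01 ± 0.66 and 3.40 ± 0.29, and Fosb, Junb and Npas4 by 3.79 ± 0.26, 2.68 ± 0.21 and 2.15 ± 0.21. Egr2 differed by 4.95 without VTA library 4. Fos was not called (log2 difference -0.55, SE 0.39, adjusted p = 0.249), at 2.24, 7.77 and 12.1 CPM in the NAc and at 6.74, 5.60, 13.1, 19.7 and 9.12 CPM in the VTA. Of the other nuclear receptors, Rxrg and Rarb, which respond to retinoids and mark the striatum, were higher in the NAc (4.02 ± 0.25 and 3.97 ± 0.14), and Esrrg, Esrrb and Nr2f2 in the VTA (-2.07 ± 0.23, -3.57 ± 0.39 and -2.45 ± 0.25). The receptor for glucocorticoids, Nr3c1, was not called (0.25 ± 0.12), but it was called higher in the NAc without VTA library 5 (0.33), in cocaine mice (0.31 ± 0.07) and at 1 day (0.44 ± 0.09).

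The trophic factor GDNF and its receptor kinase were higher in different regions. Gdnf was at 3.97, 4.86 and 5.86 CPM in the NAc and at 0.571, 0.417, 0.279, 0.524 and 0.640 CPM in the VTA (log2 difference 3.34, SE 0.22, adjusted p = 6.06e-08), while its receptor gene Ret was higher in the VTA and the co-receptor gene Gfra1 was not called (-0.19 ± 0.16). Bdnf was at 0.890, 2.23 and 5.11 CPM in the NAc and at 29.8, 15.5, 14.2, 19.6 and 9.18 CPM in the VTA, and its receptor gene Ntrk2 differed by -0.27 ± 0.10, a call lost without NAc library 2, 3 or 5 or VTA library 2, 3 or 5 (-0.26 to -0.23). Ntf3 was higher in the VTA (-4.28 ± 0.63, and -5.16 without NAc library 1). Guidance and adhesion lists held called genes in both directions. Slit3, Plxnd1, Efnb2, Epha4 and Epha7 were higher in the NAc (2.02 ± 0.27, 2.78 ± 0.26, 2.46 ± 0.22, 1.56 ± 0.15 and 1.68 ± 0.13). Slit2, Sema3b, Sema6d and Ephb2 were higher in the VTA (-1.07 ± 0.18, -3.50 ± 0.35, -1.35 ± 0.15 and -1.68 ± 0.14), and Dcc, the netrin receptor, was not called (0.02 ± 0.26). The cerebellins Cbln1, Cbln2 and Cbln4, secreted synapse organizers, were higher in the VTA (-4.12 ± 0.35, -1.99 ± 0.36 and -1.53 ± 0.23), and Lrrtm1 and Lrrtm3, adhesion proteins of excitatory synapses, in the NAc (1.85 ± 0.13 and 1.82 ± 0.11). The netrin and Slit list had 3 genes at least 2-fold higher in the NAc and 4 in the VTA of 16, the Eph list 5 and 4 of 22, and the semaphorin list 4 and 7 of 31. The VTA count of the Eph list fell to 2 without NAc library 3, VTA library 4 or VTA library 5, and that of the netrin and Slit list to 2 without NAc library 5. Of 16 classical cadherins, 3 were at least 2-fold higher in each region. Of all genes tested, 9.64% were at least 2-fold higher in the NAc and 12.6% in the VTA. In the matrix around neurons, Acan, Hapln4 and Hapln2 were higher in the VTA (-1.11 ± 0.22, -1.85 ± 0.26 and -2.20 ± 0.17) and Ncan in the NAc (1.44 ± 0.07).

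Imprinted genes, expressed from 1 parental copy, were more often higher in the VTA: 11 of 27 tested were at least 2-fold higher there and 1, Dio3, in the NAc (4.32 ± 0.64), with a median of -0.73. Dlk1 was at 84.3, 98.5 and 165 CPM in the NAc and at 456, 739, 408, 128 and 212 CPM in the VTA, with library 2 the highest, as for Th (log2 difference -1.84, SE 0.36, adjusted p = 0.000765). Nap1l5 (-1.76 ± 0.19), Ndn (-1.53 ± 0.16), Peg3 (-1.07 ± 0.12) and Gnas (-1.32 ± 0.15) were also higher in the VTA. Igf2 was at 28.0, 69.3, 205, 707 and 323 CPM in the VTA libraries, in the same order as Fmod, and differed by -3.15 ± 0.61. Without VTA library 4, Igf2 differed by -2.35 and Dio3 by 5.40.

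Oligodendrocyte and most astrocyte genes were higher in the VTA, while most microglia genes were not called unless VTA library 5 was left out. All 25 tested genes of myelinating oligodendrocytes were called higher in the VTA, 23 of them by at least 2-fold (median -1.64, range -3.86 to -0.78). Mbp, myelin basic protein, was at 2666, 3062 and 3195 CPM in the NAc and at 7058, 9437, 11206, 6666 and 13086 CPM in the VTA (log2 difference -1.68, SE 0.16, adjusted p = 1.93e-06). Mag and Mog differed by -1.73 ± 0.17 and -1.61 ± 0.18. Of 12 precursor genes, 7 were called higher in the VTA, 4 of them by at least 2-fold, and 1 in the NAc (median -0.65). Of all genes tested, 30.7% were called higher in the VTA, 12.6% by at least 2-fold, and 28.1% in the NAc. Among those not called, Pdgfra and Cspg4 differed by -0.29 ± 0.12 and -0.32 ± 0.18, and without VTA library 1 both were called higher in the VTA (-0.41 and -0.45).
Of 25 astrocyte genes, 15 were at least 2-fold higher in the VTA and 1, the forebrain factor Lhx2, in the NAc (5.45 ± 0.24). Agt, angiotensinogen, was at 4.62, 5.65 and 12.0 CPM in the NAc and at 315, 277, 318, 268 and 372 CPM in the VTA (log2 difference -5.38, SE 0.28, adjusted p = 1.01e-08). Gfap, the filament of fibrous astrocytes, was at 25.7, 37.1 and 88.3 CPM and at 321, 659, 938, 879.9 and 1322 CPM, lowest of the VTA in library 1 (log2 difference -4.24, SE 0.39, adjusted p = 1.08e-06). Slc6a11, the astrocyte GABA transporter, and Aqp4, the water channel, differed by -2.56 ± 0.23 and -2.29 ± 0.29. The glutamate transporters Slc1a2 and Slc1a3 went the other way (0.90 ± 0.13 and 0.84 ± 0.07), so astrocyte genes did not move as 1 group.
Of 19 microglia genes, none reached 2-fold and 16 were not called, with a median of 0.12. Without VTA library 5, 11 were called higher in the NAc, against 2 with it, and the median was 0.34. Cx3cr1 was at 70.8, 75.7 and 79.8 CPM in the NAc and at 43.7, 58.2, 56.7, 47.9 and 92.1 CPM in the VTA and was not called (0.34 ± 0.16), but it was called higher in the NAc without VTA library 5 (0.54) and in cocaine mice (0.63 ± 0.09).
The vascular list had 10 of 18 genes called higher in the VTA and none in the NAc (median -0.48), but 5 without NAc library 2 or 3 or VTA library 4. The 3 that were at least 2-fold higher were Acta2, Myh11 and Vtn (-3.18 ± 0.74, -2.55 ± 0.63 and -1.43 ± 0.35). The endothelial genes Flt1 and Slco1a4 were not called (-0.27 ± 0.14 and -0.27 ± 0.13). Both were called higher in the VTA without VTA library 1 (-0.35 and -0.38), and under some other settings. Without VTA library 4, Acta2 and Myh11 differed by -1.77 and -1.44. The list of meningeal and perivascular fibroblasts had 13 of 14 at least 2-fold higher in the VTA (median -3.21), and 13 without VTA library 4 (median -2.37). The libraries did not overlap for 6 of the 14, against 40.2% of all genes. Summed over the list, VTA library 1 was at 154 CPM, within the NAc range of 135 to 161, and the other VTA libraries were at 281 to 2106. In cocaine mice 12 were at least 2-fold higher in the VTA (median -2.02), and at 1 day 8 were (median -1.305). Col1a1, a collagen gene, was at 3.82, 4.54 and 5.92 CPM in the NAc and at 6.16, 9.84, 27.2, 87.4 and 35.8 CPM in the VTA (log2 difference -2.86, SE 0.54, adjusted p = 0.000522). Without VTA library 4, Col1a1 differed by -2.08 and Fmod by -3.31.

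Lists for neighbouring tissue were mixed. Of 19 genes of cortical and hippocampal excitatory neurons, 5 were at least 2-fold higher in the NAc and 3 in the VTA, and 5 and 7 without NAc libraries 1 and 6 and VTA library 1. Neurod2 was at 1.79, 5.08 and 24.4 CPM in the NAc and at 2.62, 6.54, 4.25, 15.2 and 9.71 CPM in the VTA and was not called (0.29 ± 0.65). Of 13 genes of thalamic, habenular and hypothalamic neurons, 6 were at least 2-fold higher in the VTA and 2 in the NAc. Pmch differed by -8.22 ± 1.98, and by -2.19 without VTA library 1. Sim1, a hypothalamic factor, had no read in the NAc libraries and was at least 196-fold higher in the VTA against the same floor. Of 13 genes of choroid plexus and ependyma, 5 were at least 2-fold higher in the VTA and 3 in the NAc. The shares of all genes tested were 12.6% and 9.64%. Ttr, the defining choroid plexus gene, was not called (-0.97 ± 0.81, and -0.19 without VTA library 4). The part of neighbouring tissue in the other differences was not tested.

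The 2 large housekeeping lists had medians near 0. Of 83 genes of oxidative phosphorylation, 61 were not called, 4 were called higher in the NAc and 18 in the VTA, and the median was -0.10. The shares called over all genes tested were 28.1% for the NAc and 30.7% for the VTA. Without VTA library 1 the number higher in the NAc was 20, and without NAc library 2 the number higher in the VTA was 10. Of 78 genes of cytosolic ribosomal proteins, none reached 2-fold and the median was 0.10. The number of ribosomal genes called higher in the NAc was 14, and 53 without VTA library 1 and 44 without it and NAc libraries 1 and 6.

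The same comparison was made in other animals, which share no library with it. Among the cocaine mice at 28 days, 1386 (8.35%) of 16602 genes were at least 2-fold higher in the NAc and 1737 (10.5%) in the VTA. Of the 3591 genes at least 2-fold apart in saline mice and also tested there, 3585 (99.8%) differed in the same direction, against 90.4% of all 16495 genes tested in both, and 2751 were again called at least 2-fold apart. Among saline mice at 1 day, where VTA reads were recovered from RPKM values, 1424 (8.87%) of 16063 genes were at least 2-fold higher in the NAc and 1597 (9.94%) in the VTA, and 3427 of 3439 genes (99.7%) kept their direction, against 89% of all 15952 tested in both, with 2622 again called at least 2-fold apart. Th differed by -5.72 ± 0.33 in cocaine mice and by -6.15 ± 0.26 at 1 day, Drd1a by 6.17 ± 0.15 and 6.85 ± 0.14, and Nr4a1 by 2.51 ± 0.28 and 2.08 ± 0.16. All 3 kept their direction. Of the genes known from neighbouring tissue, Tbr1 differed by 4.68 ± 0.78 and 5.24 ± 0.73 (against 4.64 ± 0.63 in saline mice at 28 days) and Tph2 by -6.19 ± 1.13 and -7.02 ± 1.04. Slc6a4 was not among the genes tested in cocaine mice, and it differed by -8.08 ± 1.23 at 1 day. Pmch differed by -8.87 ± 1.57 and -1.76 ± 0.45, Slc17a7 by 3.71 ± 0.98 and 3.59 ± 0.98, Nkx2-1 by -1.37 ± 0.55 and 3.63 ± 0.54, and Fmod by -2.20 ± 0.81 and -1.09 ± 0.50. The microglia list, at a median of 0.12 here, was at 0.48 in cocaine mice and at -0.27 at 1 day.

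**Figure D5:**
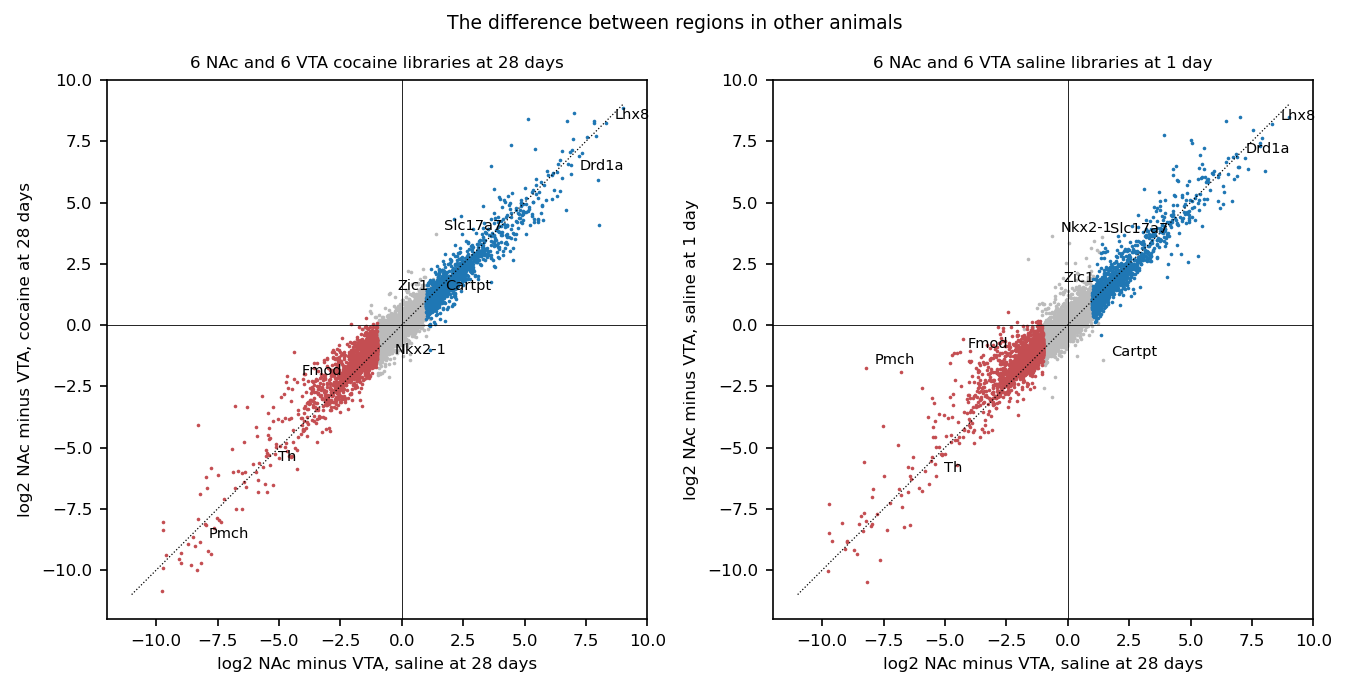
Log2 difference of NAc minus VTA in saline mice at 28 days (x axis) against that in cocaine mice at 28 days (left, y axis) and in saline mice at 1 day (right, y axis), with each point a gene, coloured by its call in saline mice at 28 days, and equality as a dotted line. The called genes follow the line in both panels, and Pmch at 1 day lies far above it (-8.22 against -1.76).

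Whether the difference between regions itself differed between saline and cocaine mice was tested over the 23 libraries of 28 days. Of 17406 genes, edgeR called 0 (0%) at an adjusted p under 0.05, with 1197 at an unadjusted p under 0.05, and DESeq2 called 13. Without VTA saline library 1, edgeR called 26 genes. For Nr4a1 the difference of differences was 0.19 ± 0.41, adjusted p = 0.943, for Th -0.36 ± 0.48, adjusted p = 0.902 and for Drd1a -0.72 ± 0.21, adjusted p = 0.495.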

How the data were processed

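Per the study's methods, reads were aligned to mm9 (Ensembl annotation) with STAR 2.4.1d. The authors deposited raw read counts per gene for each library of the NAc and the VTA at 28 days and of the NAc at 1 day. For the VTA at 1 day the deposited values were RPKM, from which whole reads were recovered as multiples of what 1 read is worth: all 23806 genes above 0 came out whole (100.0%, within 0.001 of a read). The counter and its strand setting are not given in the sources used here, so overlapping genes may share reads. Columns holding the authors' own comparisons (fold changes, p-values) were not used, nor were 30 columns of values that match no labelled sample. Promoter sequences are from RefSeq (GRCm38.p6).

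The 2 tables of counts at 28 days were joined on gene identifier, filtered with filterByExpr (a minimum count of 10), scaled together by TMM and tested with edgeR 4.0.16 (quasi-likelihood, Benjamini-Hochberg adjustment over all genes tested) in R 4.3.3. DESeq2 1.42.0, other scalings and filters, a replicate block, each library left out in turn, and other animals were alternatives. The script was tested on simulated counts. CPM are TMM-scaled. Counting intervals and the floor of 3 reads over a region cover counting error only. The column names give region, treatment and number, but not which labelled sample each column is. The named genes were the 10 largest differences in each direction among genes with at least 5 CPM in a region, and members of the gene lists. Some genes these rules would name are not reported here. The members and lists were chosen with earlier results of these data known.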

Additional observations from a re-analysis of the deposited data

Results flagged for a closer look

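In some groups of libraries the value at one end lay further from the next than Dixon's 95% limit allows for 5 or 6 values. For normally distributed values, chance gives this in about 1 in 20 groups. Whether these CPM values are normally distributed was not tested. A gene read in only 1 library of a region is always flagged, as were Foxa2 and Gata3 in the NAc. The limit was applied to 570 groups of named genes, and 56 cases were flagged, Hcrt included. Of these cases, 18 were in VTA library 1, 11 in NAc library 1 and none in VTA library 3. The values below are CPM, with the nearest other library of the region in brackets.

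Hcrt, which was not among the genes tested, was at 439 CPM by library total in VTA library 1, with 0.688 in the next VTA library. In VTA library 1, the high values were Cbln2 at 48.1 (20.3), Crh at 4.03 (1.36), Dlx1 at 9.23 (1.07), Dlx2 at 2.32 (0.320), Dlx5 at 1.23 (0.240) and Dlx6 at 3.52 (0.587). Further high values in VTA library 1 were Gal at 12.03 (1.76), Gnas at 2166 (1651), Htr6 at 2.20 (1.31), Npy at 3.91 (1.57), Nts at 22.2 (4.21) and Pdyn at 22.8 (4.45). Also high in VTA library 1 were Pmch at 433 (2.90) and Tac1 at 61.4 (16.5). The low values of VTA library 1 were Adcy1 at 69.0 (139), Cacna1d at 19.2 (27.4) and Dagla at 39.8 (52.5).

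In VTA library 4, the high values were Acta2 at 341 (72.6), Drd3 at 0.684 (0.452), Grm8 at 20.5 (13.05), Lepr at 19.3 (7.20), Myh11 at 271 (78.3) and Neto1 at 25.1 (16.04). In VTA library 5, the high values were Hcn2 at 327 (235), Ppp1r1b at 81.4 (48.0), Pvalb at 142 (65.0) and Six3 at 22.1 (5.53). The low value of VTA library 5 was Cbln4 at 15.5 (30.4). In VTA library 2, the high value was Ghsr at 13.2 (6.33). The low value of VTA library 2 was Irx3 at 7.86 (11.2).

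In NAc library 1, the high values were Calb2 at 45.4 (18.8), Gfap at 88.3 (40.5), Homer2 at 50.4 (30.6), Lhx2 at 38.8 (28.3), Ntf3 at 0.837 (0.221) and Ntsr1 at 8.06 (4.80). Further high values in NAc library 1 were Pnoc at 4.25 (2.28) and Sncg at 3.01 (1.56). The low values of NAc library 1 were Grik2 at 99.0 (122), Oprk1 at 31.7 (49.2) and Slc5a7 at 22.0 (37.2). In NAc library 6, the high values were Chrnb3 at 0.587 (0.217), Lmx1b at 0.207 (0.0768), Pdgfra at 75.8 (68.2) and Pitx3 at 0.104 (0.0310). The low value of NAc library 6 was Dlx5 at 12.7 (17.1).

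In NAc library 2, the high values were Gabrg1 at 45.2 (35.3) and Ghsr at 0.192 (0.0553). In NAc library 3, the high value was Egr2 at 10.8 (5.35). In NAc library 4, the high values were Foxa2 at 0.0256 (0), Sfxn1 at 72.8 (65.9) and Ttc12 at 4.45 (3.799). In NAc library 5, the high values were Gata3 at 0.0701 (0), Grik5 at 357 (297) and Htr6 at 10.3 (9.15).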

How the results depend on the processing

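The numbers in the column names were checked for pairing. Libraries of the same number deviated together at r of 0.0739 to 0.152, and 3 of 5 pairs matched their own number best. This does not settle whether the same number marks the same mouse, and the main fit left the libraries unpaired. With the number as a block, over 10 libraries, 9291 genes were called and 3606 differed by at least 2-fold, against 9900 and 3746. The other alternatives kept both counts within 1.5 times the main ones, except a direct test for a fold over 2: 9425 to 10569 genes were called under another tool, scaling or filter, and 9138 to 11031 without 1 library. At least 2-fold differences then numbered 3353 to 4789, and 3573 to 3993 without 1 library. In cocaine mice 11186 genes were called and 3123 differed by at least 2-fold, and 10357 and 3021 in saline mice at 1 day. Testing in the model for a fold over 2 gave 2149 genes. Library totals in place of TMM factors gave 3836 genes higher in the NAc and 6145 in the VTA, and a median of all genes of -0.13 in place of -0.03.

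The test of region by treatment gave 0 genes with edgeR, 13 with DESeq2 and 0 to 26 without 1 saline library, with 26 without VTA library 1 and 1 without VTA library 4. Among the named genes with a call in either fit, the sign turned for Zic1 in cocaine mice (1.25) and at 1 day (1.57), for Nkx2-1 at 1 day (3.63) and for Neurod2 without NAc libraries 1 and 6 and VTA library 1, a choice made after seeing the data (-1.27). The cause was not tested. Genes called in neither fit turned sign too, such as Cartpt at 1 day (-1.43) and Slc17a8 in cocaine mice (1.29). Of the named genes, Ier2 lost its call in cocaine mice (-0.45), and 7 lost it at 1 day: Chrm3 (-0.25), Fmod (-1.09), Gad1 (0.22), Grm2 (-0.46), Htr1a (-0.56), Slc32a1 (0.22) and Slit2 (-0.16). Without 1 library at most 5 lost it, while the block took the call from 2 and gave it to 3. DESeq2 did not call Pmch at the same size (-8.23). Genes with a handful of reads in a region, such as Foxa2 and Gata3, are limited by depth.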
